A study of Homo sapiens with 6 samples.

Results

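The genes described here are the transcription factor NRF2 with its regulators, a set of its target genes and the main antioxidant enzymes, 34 genes in all. They were taken by name, without aldo-keto reductases and glutathione transferases. A gene was measured where at least 1 probe set carried its symbol and no other, which held for 32 of the 34 genes, among 18132 genes in all. SOD2 was left out because its 4 probe sets are annotated to a second gene as well, and PRDX5 is not analysed here. Transcript levels were measured on 1-colour Affymetrix arrays in Huh7, an established human hepatocellular carcinoma line, harvested in logarithmic growth. The groups were 3 arrays of cells labelled KCa3.1 silenced, with the genotype label KCa3.1 knockdown, and 3 arrays of control cells. KCa3.1 is a calcium-activated potassium channel encoded by KCNN4. How it was silenced and what the control cells received are not given in the sources used here, nor whether the replicates were separate cultures. The p-values therefore set each difference against a spread between these arrays, estimated with help from all genes. That spread may be technical.

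NRF2, encoded by NFE2L2, is held in the cytosol by KEAP1, which passes it to a ubiquitin ligase for destruction. Oxidants and electrophiles modify KEAP1, and the NRF2 that escapes enters the nucleus, pairs with a small MAF protein and binds antioxidant response elements in DNA. Its targets make glutathione, reduce thioredoxin and quinones and supply NADPH, and the liver uses them in the handling of peroxides and foreign compounds.

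Values are RMA intensities on a log scale, taken here as log2, the usual output of RMA, since no source used here gives the base, and every fold below rests on that. They had been set relative to a centre for each probe set. The arrays behind that centre are not given, so a value shows where an array lies relative to the other arrays and not how strongly the gene was expressed. For the same reason the markers of hepatocytes could not be read as levels. Of 5 measured hepatocyte markers 3 were higher in the silenced-labelled arrays, APOA1 by 1.14, AFP by 0.70 and APOB by 0.38. ALB (0.16) and TTR (0.0565) did not pass the test used below, and HNF4A was not measured. Of 8 markers of fibroblasts, leukocytes and endothelium 1 was higher, COL1A2, by 0.55 on the log2 scale, and 7 did not pass. Among all genes 7.14% were higher. The part of these markers in the results was not tested. KCNN4 itself did not bear out the label. It had values of -0.054, 0.089 and 0.011 in the silenced-labelled arrays, against -0.006, 0.13 and -0.073 in the control arrays, a difference of -3e-04 with a 95% interval of -0.16 to 0.16. All 3 of its probe sets have an ID ending in _x_at, the mark of probes that also fit other transcripts. The directions below are therefore between arrays as labelled. Pearson's r across probe sets, which are not independent replicates, was 0.406 to 0.67 between arrays with a shared label and -0.273 to 0.068 between arrays with different labels. It was taken on the centred values, so it does not measure how far arrays share expression levels.

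Of the 32 measured members 11 rose, 1 fell and 20 did not pass the test (limma, adjusted p under 0.05 over all 18132 genes). The members that rose were SRXN1, GPX2, OSGIN1, ME1, GCLM, TXNRD1, PRDX2, GCLC, NQO1, GPX3 and SQSTM1, and the member that fell was BLVRB. In the same fit 7.14% of all genes rose and 6.19% fell, together 13.3%, while 34.4% of the measured members rose and 3.12% fell. The median difference, silenced-labelled minus control, was 0.094 on the log2 scale over the members and -0.006 over all genes. These counts describe the list, which was drawn up with earlier results of these data known, and no test was made over it. Cells carrying less of a transcript and fewer cells carrying it cannot be told apart in bulk RNA. The groups did not overlap in 21 members, 16 with the silenced-labelled arrays above and 5 with them below, which is 65.6% of the members. Among all genes the groups did not overlap in 29.3%, with 15% above and 14.4% below. Without silenced replicate 3 the count of members that rose was 6. The median over the 32 members was 0.059, 0.001 and 0.076 in silenced-labelled replicates 1, 2 and 3, against -0.052, 0.011 and -0.018 in control replicates 1, 2 and 3, so that silenced-labelled replicate 2 lay below control replicate 2 by this measure. By gene, the difference lay above 0 in 22 members and below it in 10, which is 68.8% above, against 47.8% of all genes.

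**Figure D1:**
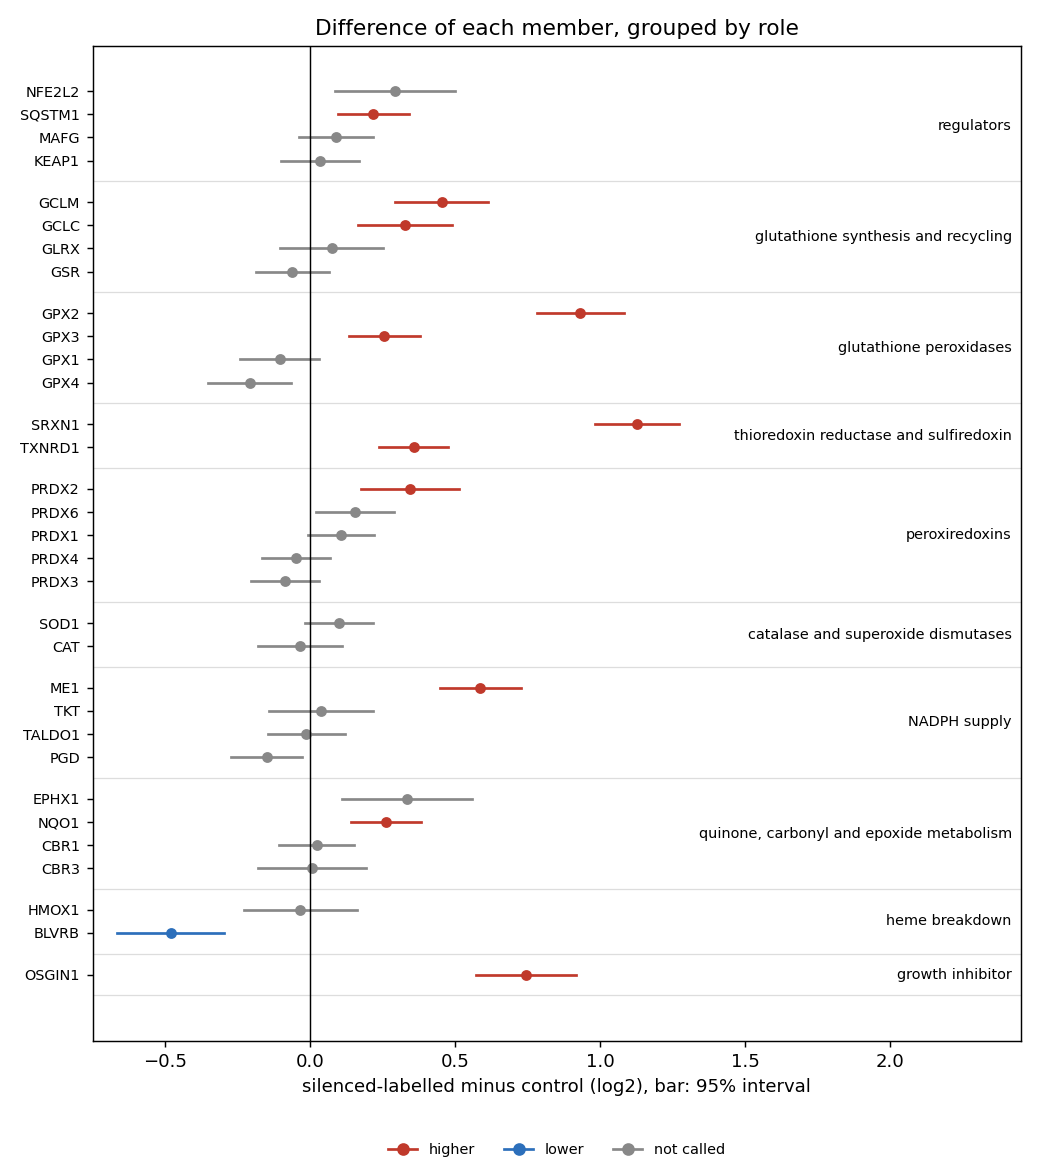
Difference of each of the 32 measured members, silenced-labelled minus control, on the log2 scale with its 95% interval from limma, grouped by role. Red marks the 11 members that rose, blue BLVRB, which fell, and grey the 20 that did not pass. The rises extend to 1.13 in SRXN1.

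The promoters of members that rose are shown to set the letters of the antioxidant response element beside the values. The core TGACNNNGC was searched on both strands, as GCNNNGTCA on the other, in windows of 250 bases before to 50 after each annotated start (RefSeq, GRCh38.p14). Windows were found for 28 of the 34 genes. The core was present in 9 of 41 windows of these genes, where windows of 1 gene can overlap, and in 13.3% of all 35116 windows. By gene it was found in 8 of 28 members and in 16.1% of 27305 genes. Of the 11 members that rose 4 held it, GPX2, ME1, GCLM and TXNRD1, and of 14 members with a window that did not pass 4 held it too, KEAP1, CBR1, EPHX1 and PGD. SRXN1, with the largest rise of the members, held none in its window, which says only that these letters are not within these 300 bases. The windows of the 4 members and of SRXN1 follow, 5′ to 3′ on the gene's strand, with each core in capitals.
GPX2, chr14:64942696-64942995, minus strand: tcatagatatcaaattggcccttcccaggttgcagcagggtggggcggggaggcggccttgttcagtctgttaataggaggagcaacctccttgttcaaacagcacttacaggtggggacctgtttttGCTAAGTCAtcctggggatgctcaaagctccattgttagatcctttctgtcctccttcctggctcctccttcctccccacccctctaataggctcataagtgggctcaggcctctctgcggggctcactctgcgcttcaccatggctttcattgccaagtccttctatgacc
ME1, chr6:83431002-83431301, minus strand: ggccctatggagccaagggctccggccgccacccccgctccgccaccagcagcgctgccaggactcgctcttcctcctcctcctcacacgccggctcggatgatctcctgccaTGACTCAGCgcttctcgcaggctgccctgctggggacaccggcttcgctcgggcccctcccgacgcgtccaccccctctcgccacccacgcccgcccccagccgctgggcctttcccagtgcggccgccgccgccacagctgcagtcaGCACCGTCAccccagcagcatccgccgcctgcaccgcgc
GCLM, chr1:93909381-93909680, minus strand: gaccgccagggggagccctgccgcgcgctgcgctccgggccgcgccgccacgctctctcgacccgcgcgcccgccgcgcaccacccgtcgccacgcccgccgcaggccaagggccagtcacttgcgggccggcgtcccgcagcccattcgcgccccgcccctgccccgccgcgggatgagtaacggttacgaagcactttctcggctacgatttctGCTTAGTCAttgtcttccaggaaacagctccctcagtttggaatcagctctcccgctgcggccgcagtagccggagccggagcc
TXNRD1, upstream start, chr12:104215529-104215828, plus strand: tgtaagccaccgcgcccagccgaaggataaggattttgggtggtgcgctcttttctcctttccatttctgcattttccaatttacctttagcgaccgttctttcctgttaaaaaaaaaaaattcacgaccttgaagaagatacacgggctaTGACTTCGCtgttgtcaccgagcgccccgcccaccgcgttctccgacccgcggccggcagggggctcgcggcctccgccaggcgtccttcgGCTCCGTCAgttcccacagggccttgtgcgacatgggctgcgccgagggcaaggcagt
TXNRD1, downstream start, chr12:104286782-104287081, plus strand: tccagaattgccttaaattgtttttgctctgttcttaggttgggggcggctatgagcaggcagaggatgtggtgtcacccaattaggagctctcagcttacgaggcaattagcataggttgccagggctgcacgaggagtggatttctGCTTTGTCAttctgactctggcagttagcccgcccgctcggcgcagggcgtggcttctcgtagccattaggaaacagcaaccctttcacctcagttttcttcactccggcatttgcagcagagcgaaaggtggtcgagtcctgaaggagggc
SRXN1, chr20:653151-653450, minus strand: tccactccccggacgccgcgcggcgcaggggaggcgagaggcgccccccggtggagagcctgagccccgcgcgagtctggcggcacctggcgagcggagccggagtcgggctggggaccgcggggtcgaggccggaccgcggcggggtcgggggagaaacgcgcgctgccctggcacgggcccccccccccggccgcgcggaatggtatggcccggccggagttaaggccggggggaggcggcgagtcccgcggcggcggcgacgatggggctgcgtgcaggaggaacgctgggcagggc
In GPX2 the core GCTAAGTCA runs from 122 to 114 bases before the start and in GCLM GCTTAGTCA from 34 to 26 bases before it. ME1 holds TGACTCAGC from 137 to 129 bases before its start and a second core after the start. A match is a description of the sequence and not a site of binding.

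Of the 4 measured regulators 1 rose, SQSTM1. NFE2L2 (Entrez gene 4780), the gene of NRF2 itself, had values of 0.073, 0.081 and -0.059 in the silenced-labelled arrays, against -0.072, -0.43 and -0.28 in the control arrays. All 3 silenced-labelled arrays lay above all 3 control arrays, by a narrow margin between silenced-labelled replicate 3 and control replicate 1. The difference of 0.29 (SE 0.091, 95% interval 0.086 to 0.50) did not pass (limma adjusted p = 0.071), and it did pass without control replicate 1 (difference 0.39, adjusted p = 0.016). Both of its probe sets lay above 0, at 0.26 and 0.33.

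KEAP1 (Entrez gene 9817), the inhibitor of NRF2, had values of 0.066, 0 and 0.13 in the silenced-labelled arrays, against -0.022, 0.082 and 0.032 in the control arrays. The groups overlapped, with a difference of 0.034 (95% interval -0.10 to 0.17). MAFG, a small MAF partner of NRF2, had a difference of 0.089 (95% interval -0.038 to 0.22) and did not pass. Its silenced-labelled arrays lay above the control arrays, by a narrow margin. SQSTM1 (Entrez gene 8878) encodes an autophagy receptor that binds KEAP1 and is also an NRF2 target. It had values of 0.052, 0.069 and 0.059 in the silenced-labelled arrays, against -0.21, -0.10 and -0.15 in the control arrays. The silenced-labelled arrays were close to each other and above the control arrays, and SQSTM1 rose by 0.22 (SE 0.054, limma adjusted p = 0.029). Its call was lost without any 1 of silenced replicates 1, 2 and 3 or control replicates 1 and 3, where the difference lay between 0.19 and 0.22 and the adjusted p between 0.065 and 0.099. It was also lost with the replicate number as a block (adjusted p = 0.077). Of its 5 probe sets 1 passed on its own, at 0.35, and the other 4 lay between 0.17 and 0.21.

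Both subunits of glutamate-cysteine ligase, which makes the first bond of glutathione, rose. GCLM (Entrez gene 2730), the modifier subunit, had values of 0.22, 0.15 and 0.093 in the silenced-labelled arrays, against -0.21, -0.43 and -0.26 in the control arrays. The groups were well separated, and GCLM was 1.37-fold higher (log2 difference 0.45, SE 0.071, limma adjusted p = 0.003), with both probe sets past the threshold at 0.52 and 0.39. GCLC (Entrez gene 2729), the catalytic subunit, had values of 0.13, -0.021 and 0.13 in the silenced-labelled arrays, against -0.20, -0.36 and -0.18 in the control arrays. Replicate 2 was the lowest array in each group, and the groups did not overlap. GCLC was 1.25-fold higher (log2 difference 0.33, SE 0.071, limma adjusted p = 0.016). That call was lost without silenced replicate 1 (0.30, adjusted p = 0.057), silenced replicate 3 (0.30, adjusted p = 0.07) or control replicate 2 (0.27, adjusted p = 0.056). Of its 4 probe sets 1 passed on its own, at 0.30, and the others gave 0.21, 0.29 and 0.50. With the most variable of them in place of their mean the difference was 0.50, and the adjusted p = 0.13.

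The enzymes that reduce oxidised glutathione and its protein adducts did not pass. GSR, glutathione reductase, had a difference of -0.061 (95% interval -0.19 to 0.065), and GLRX, a glutaredoxin, one of 0.075 (95% interval -0.10 to 0.25). The groups overlapped in both.

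The glutathione peroxidases, which reduce peroxides with glutathione, had 2 of 4 members higher, GPX2 and GPX3, and the other two not past the threshold. GPX2 (Entrez gene 2877), the gastrointestinal form, had values of 0.92, 1.05 and 0.83 in the silenced-labelled arrays, against -0.033, 0.036 and 0 in the control arrays. Every silenced-labelled array was far above every control array. GPX2 averaged 0.93 ± 0.11 in silenced-labelled and 0.001 ± 0.034 in control arrays (SD, n = 3 each) and was 1.91-fold higher (log2 difference 0.93, SE 0.067, limma adjusted p = 4.3e-05). It was measured by 1 probe set.

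GPX3 (Entrez gene 2878), the secreted plasma form, had values of 0.25, 0.19 and 0.30 in the silenced-labelled arrays, against -0.015, 0.011 and -0.028 in the control arrays. The groups did not overlap, and GPX3 rose by 0.26 (SE 0.054, limma adjusted p = 0.014). Its probe sets gave 0.28, in one ending in _s_at that passed, and 0.24, in one that did not. The call was lost without silenced replicate 3 (0.23, adjusted p = 0.073), without control replicate 3 (0.25, adjusted p = 0.054) and with specific probe sets only (0.24, adjusted p = 0.052). GPX4, which reduces lipid peroxides in membranes, had values of -0.17, -0.26 and -0.13 in the silenced-labelled arrays, against -0.064, 0.080 and 0.044 in the control arrays. All silenced-labelled arrays were below the control arrays, and the difference of -0.21 (SE 0.063) did not pass (limma adjusted p = 0.066). It passed without control replicate 1 (-0.25, adjusted p = 0.042), with arrays quantile normalised again (-0.23, adjusted p = 0.043) and with arrays scaled to equal spread (-0.22, adjusted p = 0.041). GPX1, the widespread cytosolic form, had a difference of -0.10 (95% interval -0.24 to 0.032), and both of its probe sets end in _x_at. Its silenced-labelled arrays lay below the control arrays, by a narrow margin to control replicate 1.

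In the thioredoxin arm, TXNRD1 and SRXN1 both rose. SRXN1 (Entrez gene 140809) encodes sulfiredoxin, which returns overoxidised peroxiredoxins to use. It had values of 0.50, 0.40 and 0.54 in the silenced-labelled arrays, against -0.71, -0.67 and -0.56 in the control arrays. The gap between the groups was many times the spread within each. SRXN1 averaged 0.48 ± 0.072 in silenced-labelled and -0.65 ± 0.075 in control arrays (SD, n = 3 each) and was 2.19-fold higher (log2 difference 1.13, SE 0.064, limma adjusted p = 1.3e-05). It was the 1 member that changed at least 2-fold, as did 0.651% of all genes, and its single probe set ends in _s_at, which marks probes shared by several transcripts.

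TXNRD1 (Entrez gene 7296), the cytosolic thioredoxin reductase, had values of 0.30, 0.27 and 0.28 in the silenced-labelled arrays, against -0.031, -0.11 and -0.082 in the control arrays. The arrays of each group lay close together and the groups did not overlap. TXNRD1 was 1.28-fold higher (log2 difference 0.36, SE 0.052, limma adjusted p = 0.0021), and all 3 probe sets passed, between 0.33 and 0.39.

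**Figure D2:**
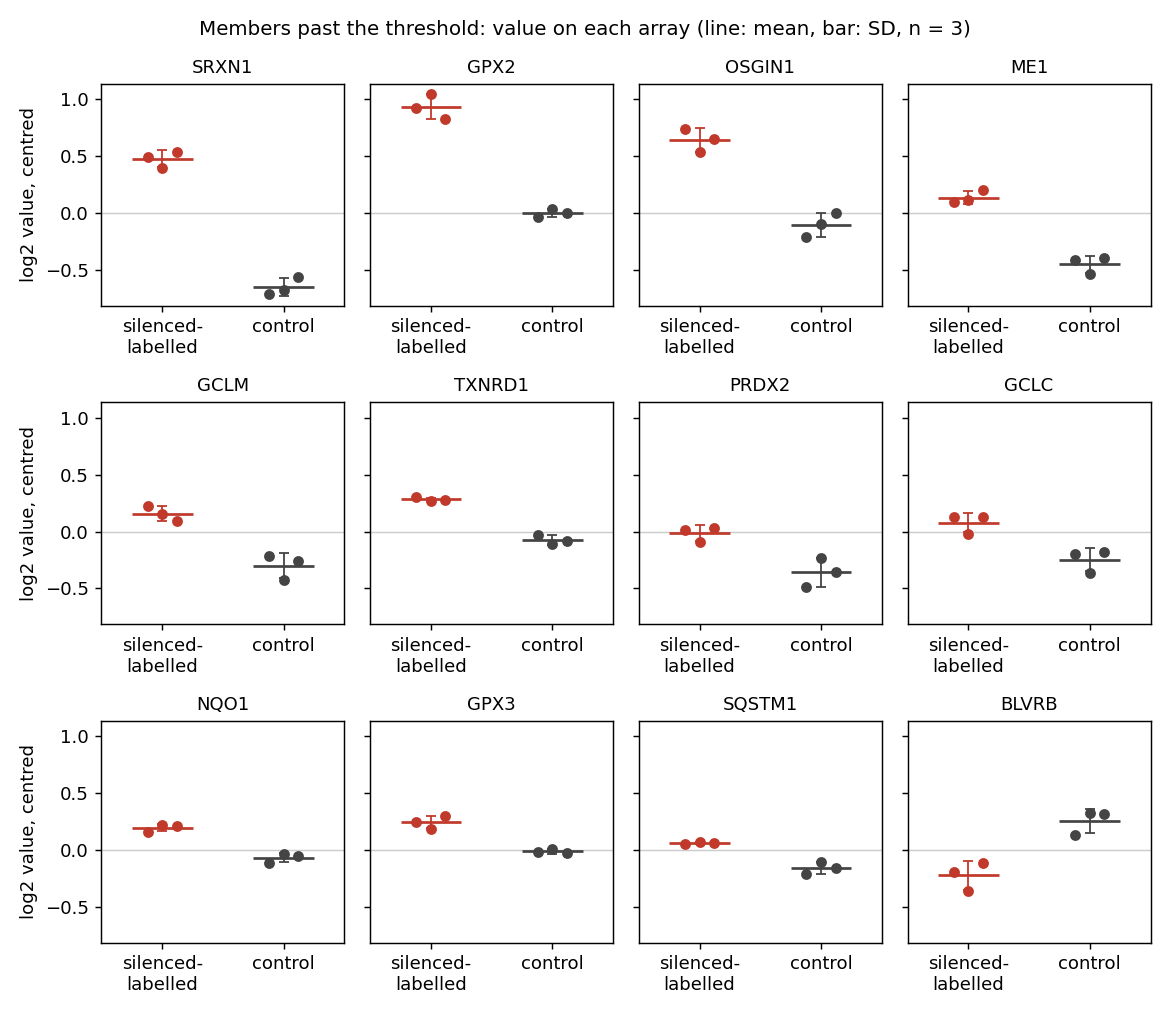
Centred log2 value of each of the 12 members past the threshold on the 3 silenced-labelled arrays (red, left) and the 3 control arrays (grey, right), with the mean as a line and the SD as a bar. The groups do not overlap in any of the 12 panels, which were chosen by the threshold, and the widest gap is that of SRXN1. Among all genes the groups do not overlap in 29.3%.

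The peroxiredoxins reduce hydrogen peroxide with electrons from thioredoxin or, in the case of PRDX6, glutathione. Of the 5 measured, PRDX2 (Entrez gene 7001), a cytosolic form, rose. It had values of 0.015, -0.089 and 0.035 in the silenced-labelled arrays, against -0.48, -0.23 and -0.36 in the control arrays. The control arrays were spread more widely than the silenced-labelled ones, and the groups did not overlap. PRDX2 was 1.27-fold higher (log2 difference 0.34, SE 0.074, limma adjusted p = 0.016), with all 5 probe sets between 0.30 and 0.42 and 4 of them past the threshold. The call was lost without silenced replicate 1 (0.33, adjusted p = 0.051), silenced replicate 3 (0.32, adjusted p = 0.065) or control replicate 3 (0.34, adjusted p = 0.053).

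The other peroxiredoxins did not pass. PRDX6 had a difference of 0.15 (95% interval 0.019 to 0.29, limma adjusted p = 0.14) and PRDX1, a cytosolic form and NRF2 target, one of 0.11 (95% interval -0.008 to 0.22), and in both the silenced-labelled arrays lay above the control arrays. PRDX3, the mitochondrial form, had a difference of -0.086 (95% interval -0.20 to 0.032) with the groups apart in the other direction. PRDX4, the form of the endoplasmic reticulum, had -0.047 (95% interval -0.16 to 0.070), and its groups overlapped.

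Neither catalase nor cytosolic superoxide dismutase passed. CAT, which splits hydrogen peroxide in peroxisomes, had a difference of -0.035 (95% interval -0.18 to 0.11), and its 2 probe sets lay on opposite sides of 0, at -0.11 and 0.044. SOD1, which turns superoxide into hydrogen peroxide, had a difference of 0.10 (95% interval -0.018 to 0.22), with the silenced-labelled arrays above the control arrays.

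Among the suppliers of NADPH, which glutathione and thioredoxin reductases consume, malic enzyme rose and the 3 genes of the pentose phosphate pathway did not pass. ME1 (Entrez gene 4199), the cytosolic malic enzyme, had values of 0.095, 0.11 and 0.20 in the silenced-labelled arrays, against -0.42, -0.54 and -0.40 in the control arrays. The groups were far apart compared with their spread. ME1 was 1.5-fold higher (log2 difference 0.59, SE 0.061, limma adjusted p = 0.00035), and its 2 probe sets gave 0.60 and 0.58.

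PGD, which encodes 6-phosphogluconate dehydrogenase, had values of -0.033, -0.046 and 0 in the silenced-labelled arrays, against 0.14, 0.17 and 0.067 in the control arrays. Its silenced-labelled arrays were all below the control arrays, the opposite side from ME1, and the difference of -0.15 (95% interval -0.27 to -0.027) did not pass (limma adjusted p = 0.12). The transaldolase gene TALDO1 and the transketolase gene TKT had differences of -0.013 (95% interval -0.15 to 0.12) and 0.038 (95% interval -0.14 to 0.22). Each had probe sets on both sides of 0, from -0.14 to 0.11 in TALDO1 and from -0.19 to 0.17 in TKT.

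Of the enzymes that act on quinones, carbonyls and epoxides, NQO1 (Entrez gene 1728) rose. It encodes the quinone reductase that is often read as a measure of NRF2 activity. NQO1 had values of 0.16, 0.22 and 0.21 in the silenced-labelled arrays, against -0.11, -0.038 and -0.048 in the control arrays. The groups did not overlap, and NQO1 was 1.2-fold higher (log2 difference 0.26, SE 0.053, limma adjusted p = 0.011), a smaller difference than those of SRXN1 and GPX2 in the same arrays. Of its 2 probe sets the one at 0.32, which ends in _s_at, passed on its own, and the one at 0.21 did not. The call was lost without silenced replicate 3 (0.26, adjusted p = 0.054).

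EPHX1, the microsomal epoxide hydrolase, had values of 0.22, 0 and 0.32 in the silenced-labelled arrays, against -0.29, 0 and -0.17 in the control arrays. Replicate 2 stood at exactly 0 in both groups, so the groups met there, and the difference of 0.33 (SE 0.098) did not pass (limma adjusted p = 0.058). It passed without silenced replicate 2 (0.42, adjusted p = 0.027) and without control replicate 2 (0.41, adjusted p = 0.045). The carbonyl reductases CBR1 and CBR3 had differences of 0.023 (95% interval -0.11 to 0.15) and 0.007 (95% interval -0.18 to 0.19). The 7 probe sets of CBR1 ranged from -0.21 to 0.21, and none passed (0 in the fit across all probe sets by limma).

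Of the 2 heme genes, BLVRB fell and HMOX1 did not pass. HMOX1, heme oxygenase, is strongly induced by NRF2 in many cells and is also held down by the repressor BACH1. It had values of -0.052, -0.10 and -0.063 in the silenced-labelled arrays, against 0.033, 0.10 and -0.24 in the control arrays. The control arrays lay on both sides of the silenced-labelled ones, with a difference of -0.033 (95% interval -0.23 to 0.16). BLVRB (Entrez gene 645), a biliverdin and flavin reductase, had values of -0.20, -0.36 and -0.11 in the silenced-labelled arrays, against 0.14, 0.32 and 0.32 in the control arrays. The silenced-labelled arrays were all below the control arrays. BLVRB was 1.4-fold lower (log2 difference -0.48, SE 0.081, limma adjusted p = 0.0044) and was measured by 1 probe set.

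OSGIN1 (Entrez gene 29948), an NRF2 target that inhibits growth when oxidative stress is present, had values of 0.74, 0.53 and 0.65 in the silenced-labelled arrays, against -0.21, -0.10 and 0.004 in the control arrays. The groups were well apart, and OSGIN1 was 1.67-fold higher (log2 difference 0.74, SE 0.076, limma adjusted p = 0.00031). Both probe sets passed, at 0.81 and 0.68.

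The probe sets of a member mostly lay on the same side of 0. The 32 members had 78 probe sets, of which 19 rose, 1 fell and 58 did not pass, against 5.82% of 49293 probe sets higher and 4.85% lower. Of the 24 members with several probe sets, 19 had all of them on the same side, and the other 5 were CAT, TALDO1, TKT, CBR1 and HMOX1, none of which passed as a gene. In 0 of the 24 did probe sets pass in both directions, and the 8 members with 1 probe set could not do so. A value of exactly 0 on at least 1 array occurred in 53 of the 78 probe sets and on at least 2 arrays in 8. The source of these zeros was not tested.

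**Figure D3:**
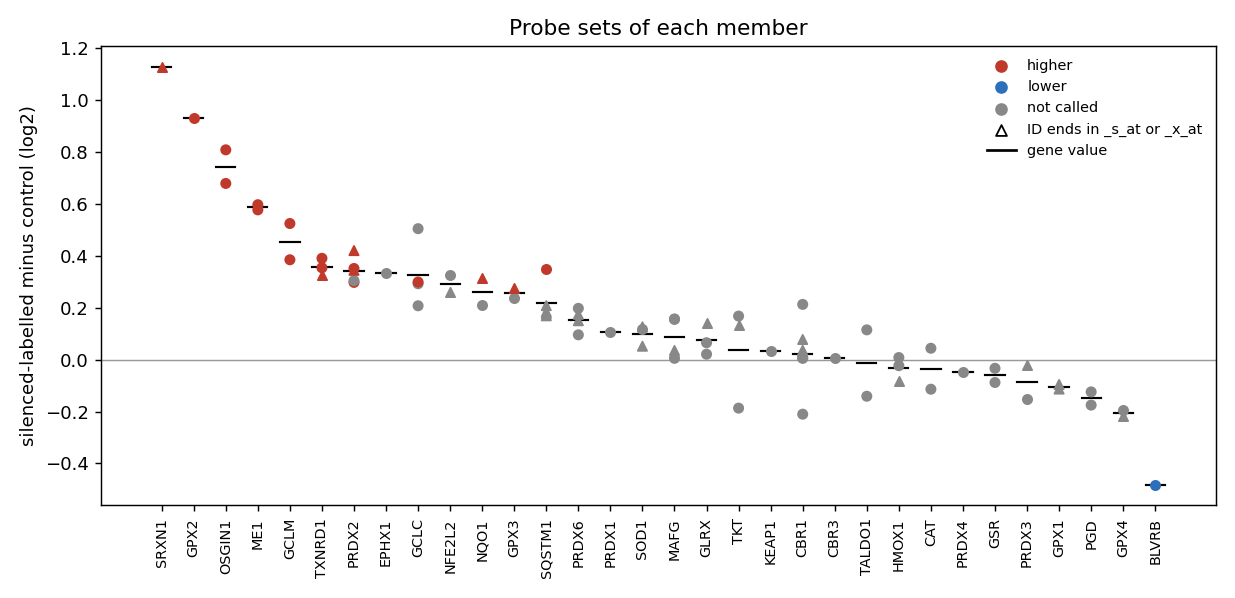
Difference of each of the 78 probe sets, silenced-labelled minus control on the log2 scale, with the members ordered by their gene value (black line). Triangles are probe sets whose ID ends in _s_at or _x_at, whose probes can match other transcripts, and colours give the limma call of the probe set. The probe sets of SRXN1, GPX2, OSGIN1, ME1 and GCLM are all above 0.3, and those of TKT, CBR1, TALDO1, HMOX1 and CAT straddle 0.

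Among other NRF2 targets that are not members, 8 of 19 measured genes rose and 11 did not pass, which is 42.1% against 7.14% of all genes. Like the members, this list and the lists that follow were drawn up with earlier results of these data known. No test was made over them, so their counts are not independent of the counts of the members. Of the 8, AKR1B10, AKR1C1, AKR1C2 and AKR1C3 are aldo-keto reductases, the family left out of the members, each counted as a separate gene. The others were PTGR1, ABCC2, ABCC4 and IDH1. The median difference was 0.13. By gene, 14 lay above 0 and 5 below it, which is 73.7% above, against 47.8% of all genes. The 5 were ALDH3A1 (-0.20), SLC48A1 (-0.19), SLC7A11 (-0.11), FTL (-0.031) and ABCC3 (-0.028), none of which passed. The aldo-keto reductase gene AKR1B10 had values of 1.68, 1.65 and 1.72 in the silenced-labelled arrays, against -1.13, -0.99 and -1.01 in the control arrays, a difference of 2.73. That was the largest rise among all 18132 genes. AKR1C1 and AKR1C2, which reduce steroids and carbonyls, rose by 0.84 and 0.73, and as near-identical copies they may share probes. TXN, thioredoxin, had a difference of 0.11 (95% interval -0.016 to 0.23) and did not pass. The count of other targets that rose was 5 without silenced replicate 3.

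Among 12 measured regulators of NRF2 outside the members, GSK3B rose and NFE2L1 and RBX1 fell, which is 8.33% higher and 16.7% lower, against 7.14% and 6.19% of all genes. The median difference was -0.11, against -0.006 over all genes. NFE2L1, a relative of NRF2 that drives proteasome genes, fell by 0.32 (SE 0.060, limma adjusted p = 0.008), and its values were -0.034, -0.12 and -0.048 in the silenced-labelled arrays, against 0.16, 0.30 and 0.29 in the control arrays. RBX1, the RING subunit of the ubiquitin ligase that KEAP1 serves, fell by 0.30 (SE 0.057, limma adjusted p = 0.0085). GSK3B, a kinase that marks NRF2 for destruction by another route, rose by 0.23 (SE 0.053, limma adjusted p = 0.021). It no longer passed when silenced replicate 1 or 3 or control replicate 2 was left out (differences of 0.215 to 0.23, adjusted p between 0.064 and 0.08) or with the replicate block (adjusted p = 0.062). The call of NFE2L1 was lost with its most variable probe set (adjusted p = 0.086), and that of RBX1 with specific probe sets only (-0.21, adjusted p = 0.052). The repressor BACH1 had a difference of -0.040 (95% interval -0.16 to 0.076).

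In the glutathione and thioredoxin systems outside the members, 3 of 19 measured genes rose, 5 fell and 11 did not pass, which is 15.8% higher and 26.3% lower, against 7.14% and 6.19% of all genes. The median difference was -0.031, against -0.006 over all genes. TXNIP, which binds and inhibits thioredoxin, had values of -0.10, 0.025 and 0.006 in the silenced-labelled arrays, against 1.72, 1.86 and 1.87 in the control arrays, and fell by 1.84. TXNRD2, the mitochondrial thioredoxin reductase, had values of 0, -0.18 and 0.003 in the silenced-labelled arrays, against 0.24, 0.42 and 0.47 in the control arrays. It fell by 0.43 (SE 0.080, limma adjusted p = 0.0073), while cytosolic TXNRD1 rose. GGCT, which degrades gamma-glutamyl peptides, rose by 0.42 (SE 0.059, limma adjusted p = 0.0017). The count of genes that rose was 1 without silenced replicate 3.

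The members GPX1, GPX2, GPX3 and GPX4 and the thioredoxin reductases carry selenocysteine, so genes of selenoprotein synthesis and supply were counted as well. Of 13 measured 3 rose, 2 fell and 8 did not pass, which is 23.1% higher and 15.4% lower, against 7.14% and 6.19% of all genes. The median difference was -0.057, against -0.006 over all genes. SEPHS1, of the selenophosphate synthetase family, rose by 0.39 (SE 0.067, limma adjusted p = 0.0046). SELENOP, the selenium carrier of plasma, rose by 0.37. It no longer passed when silenced replicate 2 or 3 or control replicate 2 or 3 was left out (differences of 0.31 to 0.35, adjusted p between 0.059 and 0.065). SELENOT fell by 0.34 on the log2 scale. It no longer passed when silenced replicate 3 (-0.29) or control replicate 3 (-0.30) was left out, or with specific probe sets only (-0.20, adjusted p = 0.35). Without silenced replicate 2 or 3 or control replicate 2 or 3 the count of genes that rose was 1. Leaving out silenced replicate 3 left 0 genes that fell by limma, and leaving out silenced replicate 1 or control replicate 2 or 3 left 1.

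**Figure D4:**
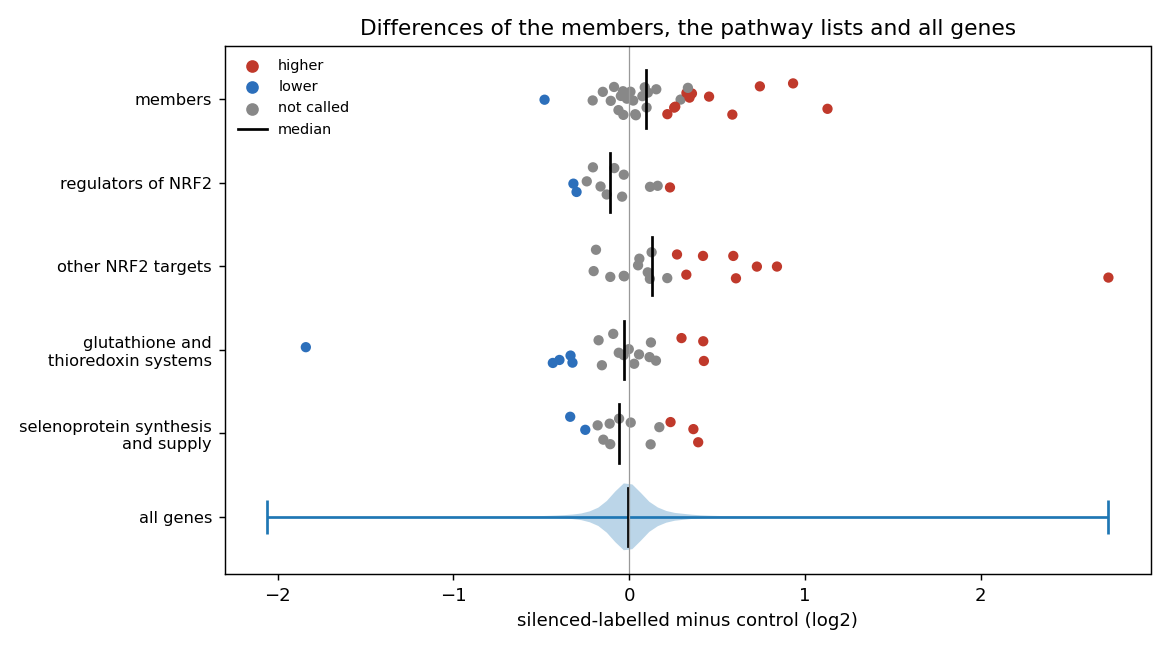
Differences, silenced-labelled minus control on the log2 scale, of the 32 members and the 4 lists of related genes (points, coloured by the limma call) and of all 18132 genes (violin over their full range), with medians as black lines. The members and the other NRF2 targets have medians of 0.094 and 0.13, the regulators, the glutathione and thioredoxin systems and the selenoprotein genes have medians below 0, and all genes at -0.006.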

How the data were processed

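The deposited table holds values for 49395 probe sets on 6 arrays, which the authors made with RMA (its version is not given in the sources used here), per the submitters' processing notes. The deposited values were taken as log2, the usual output of RMA, an assumption on which all folds rest. Values lie around 0, so each probe set had been set relative to a centre. The arrays used for that centring and the log base are not given in the sources used here. Centring cancels in differences between groups but removes levels, so no filter on low values was possible. Depth does not apply to arrays, and the number of arrays limits the precision.

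From the table, 102 control probe sets were left out, and of the other 49293, 44988 had 1 gene symbol in the platform annotation, 1832 several and 2473 none here. A gene's value, for 18132 genes, was the average over the probe sets that carry its symbol alone. Silenced-labelled minus control was fitted over all 6 arrays by limma (version 3.58.1, lmFit and eBayes, under R 4.3.3), with Benjamini-Hochberg adjustment over all genes or all probe sets and a threshold of 0.05. The same fit was tested on simulated data. The members and lists were chosen with earlier results of these data known. All measured members are named, with array values for those past the threshold and for NFE2L2, KEAP1, NQO1, HMOX1, GCLC and GCLM. Array values of GPX4, PGD and EPHX1 were added after their values were seen, as was BACH1. In each list of related genes the 3 largest changes past the threshold are named, with TXN and TXNIP. Every gene that rose among the other NRF2 targets is named as well. Those of that list with a difference below 0 were added after their values were seen. Alternatives were the choice of probe sets, array scaling, leaving out probe sets with repeated zeros, robust variances, a replicate block and leaving out each array.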

Additional observations from a re-analysis of the deposited data

How the results depend on the processing

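Under 13 alternatives, fewer where a gene lost its probe sets, 7 of the 12 members called kept the call in every setting run, the rises of SRXN1, GPX2, OSGIN1, ME1, GCLM and TXNRD1 and the fall of BLVRB, and the other 5 lost it in at least 1. The count of members changed, 12, lay between 7 and 13 when 1 array was left out, that of members higher, 11, between 6 and 11, and that of members lower, 1, between 1 and 2. The count of members lower was 2 with arrays quantile normalised again and 2 with arrays scaled to equal spread, where GPX4 passed. Over all genes the lower count, 1123, lay between 736 and 1167 and the changed count, 2418, between 1641 and 2289 with 1 array left out, and the count of changed probe sets, 5261, between 3252 and 4592. The count of related genes changed, 24 over the 4 lists, lay between 14 and 22. Regulators of NRF2 that rose, 1, were 0 with specific probe sets only or the replicate block, and those that fell, 2, were 1 with specific probe sets only. Genes of the glutathione and thioredoxin systems that rose, 3, were 1 with each gene's most variable probe set, and selenoprotein genes that fell, 2, were 1 with specific probe sets only.

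KCNN4, at -3e-04, was 0.021 with its most variable probe set, 0.0014 quantile normalised again and 0.0063 scaled to equal spread, and lay between -0.045 and 0.055 with 1 array left out. Signs turned in 6 members that did not pass. With 1 array left out GLRX lay between -0.0069 and 0.13, TALDO1 between -0.049 and 0.017, TKT between -0.014 and 0.11, CBR1 between -0.0077 and 0.059, CBR3 between -0.072 and 0.089 and HMOX1 between -0.135 and 0.034. With the most variable probe set TKT was -0.19 and CBR1 -0.21, with specific probe sets only TKT was -0.0096, and quantile normalised again CBR3 was -0.0024. The cause was not tested.

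No pairing of the arrays by replicate number was seen. Deviations from the group means correlated with r of -0.096, -0.069 and -0.040 across genes for numbers 1, 2 and 3. Arrays with different numbers gave r from -0.379 to 0.381, and 0 of 6 arrays correlated best with its own number. The deviations of 3 arrays sum to 0 in each group, so these values cannot show whether equal numbers shared a culture or day. With the replicate block 2065 genes and 11 members changed, and of the members the call of SQSTM1 alone was lost (0.22, limma adjusted p = 0.077). A single array decides several calls near the threshold, and expression levels, splice forms and protein or enzyme activity are not measured here.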
